A study of Mus musculus with 2 samples.

Results

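The genes of blood stem cells and of the lineages that descend from them were set against the peaks listed for a chromatin immunoprecipitation with an antibody to Usp16. They comprise 56 protein-coding genes chosen by name, out of 21887 protein-coding genes on the assembled nuclear chromosomes. By role they are 21 genes of stem and progenitor cell transcription factors and their partners, 8 of surface proteins of stem and progenitor cells, 7 erythroid genes, 9 myeloid genes, 6 lymphoid genes, 4 megakaryocyte genes and Ptprc, which encodes the CD45 surface protein of all leukocytes. The study made 1 library with anti-Usp16 and 1 library with IgG, both from bone marrow cells sorted as ckit and sca1 positive, the fraction of mouse marrow that holds blood stem and progenitor cells. All of these cells came from mice with Mx1-Cre and loxP-flanked Usp16 alleles. Mx1-Cre is switched on by interferon, and the labels do not say whether it had been induced, how many mice gave cells or whether mice were pooled, so it is not known here how much Usp16 the cells held. The data are the 5079 peaks of the anti-Usp16 list, of which 5046 lie on assembled chromosomes. Their score is the authors' peak caller's own value, with a median of 70.1, a lowest value of 50 and a highest value of 2409. Without replicates there is no error for any peak, no comparison below has a test, and sites too weak to be listed cannot be told from sites without signal. The list holds no expression values, so the labelled cell type was not checked against marker genes.

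Usp16 removes ubiquitin from histone H2A, the mark that Polycomb complexes place at repressed genes. Blood stem cells are kept by a network of transcription factors that act on their own and each other's genes through distant enhancers, while the genes of mature lineages stay low until a progenitor commits. Lineage choice then rests on factors such as Gata1 and Klf1 in red cell precursors, the C/EBP family in granulocyte precursors, Ebf1 and Pax5 in B cells, and Tcf7 and Bcl11b in T cells.

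Peaks at the ends of these genes were few. A peak came within 1 kb of an annotated end of 4 of the 56 genes, Nkap, Cebpa, Cd68 and Fcgr3, which is 7.14%, against 13.9% of all protein-coding genes. The peaks at Nkap and Cebpa covered a transcription start of the gene itself. Those at Cd68 and Fcgr3 lay away from the starts listed for these genes, next to the start of another coding gene in one case and over tRNA genes in the other. Starts and strands came from a RefSeq promoter table, which lists 46 of the 56 genes. Lmo2, Fli1, Spi1, Ly6a, Slc4a1, Ank1, Nfe2, Cebpe, Csf1r and Vwf are not among them. Of the 46, Nkap and Cebpa were the 2 with a peak within 1 kb of a listed start, against 14.2% of the 17492 protein-coding genes in that table. Where a gene had a peak at one end only, it was mostly the start side. Among 11079 protein-coding genes over 10 kb long with a listed strand, 1627 had a peak at the start side alone and 102 at the other side alone.

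For some genes the 250 bases before the listed start were set against the peaks, which can reach beyond them. They are given for the 2 genes with a peak at their own start, then for Mpdu1 and Zcchc7, the neighbours whose starts lie under the peaks closest to Cd68 and Pax5, each followed by the blood gene itself, whose start had no peak. Sequences are from RefSeq on GRCm38.p6, 5′ to 3′ in the direction of transcription, so that each ends 1 base before the start. Capitals mark CCAAT, the motif of NF-Y, GGGCGG, that of Sp1, AGATAA, that of GATA factors, TGTGGT, that of Runx factors, TATAAA, the TATA box, and TGACTCA, that of AP-1, on either strand, and no 2 of the marked matches overlap.
Cebpa: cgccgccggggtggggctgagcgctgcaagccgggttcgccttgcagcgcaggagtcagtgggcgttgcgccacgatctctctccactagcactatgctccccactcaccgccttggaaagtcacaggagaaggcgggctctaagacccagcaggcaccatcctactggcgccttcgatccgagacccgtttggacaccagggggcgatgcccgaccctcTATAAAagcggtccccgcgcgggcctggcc
Nkap: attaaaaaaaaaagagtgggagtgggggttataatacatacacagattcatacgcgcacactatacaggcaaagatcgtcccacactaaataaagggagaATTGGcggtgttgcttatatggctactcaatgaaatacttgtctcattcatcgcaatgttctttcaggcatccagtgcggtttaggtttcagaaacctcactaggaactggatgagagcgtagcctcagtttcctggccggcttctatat
Mpdu1: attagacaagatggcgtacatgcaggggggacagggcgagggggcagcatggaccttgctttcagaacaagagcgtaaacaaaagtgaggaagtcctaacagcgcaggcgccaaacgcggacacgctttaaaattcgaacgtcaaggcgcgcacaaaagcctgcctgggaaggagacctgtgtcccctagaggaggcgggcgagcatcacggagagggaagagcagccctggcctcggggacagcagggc
Cd68: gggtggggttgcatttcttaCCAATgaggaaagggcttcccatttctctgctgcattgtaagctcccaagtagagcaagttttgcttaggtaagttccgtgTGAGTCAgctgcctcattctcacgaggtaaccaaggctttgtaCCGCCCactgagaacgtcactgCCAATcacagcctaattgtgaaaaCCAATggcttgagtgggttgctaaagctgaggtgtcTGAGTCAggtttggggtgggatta
Zcchc7: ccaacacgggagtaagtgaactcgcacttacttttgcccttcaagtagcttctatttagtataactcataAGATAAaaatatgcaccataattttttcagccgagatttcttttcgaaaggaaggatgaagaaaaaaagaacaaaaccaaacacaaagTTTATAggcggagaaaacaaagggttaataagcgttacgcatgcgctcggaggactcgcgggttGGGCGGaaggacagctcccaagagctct
Pax5: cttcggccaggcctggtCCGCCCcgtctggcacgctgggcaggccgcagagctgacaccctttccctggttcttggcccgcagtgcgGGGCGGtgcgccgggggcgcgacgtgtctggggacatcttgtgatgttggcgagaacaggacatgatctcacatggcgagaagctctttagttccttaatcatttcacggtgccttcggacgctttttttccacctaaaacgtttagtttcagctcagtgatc
The Cebpa stretch (chr7:35119043-35119292, plus strand) lay wholly under its peak, held a TATA box and no other marked motif, and had 66.4% G and C. The Nkap stretch (chrX:37126513-37126762, plus strand) lay under its peak for 242 of 250 bases, held 1 CCAAT and had 42.8% G and C. The Mpdu1 stretch (chr11:69662650-69662899, minus strand) was covered in full and held none of the marked motifs, whereas the Cd68 stretch (chr11:69666171-69666420, minus strand) was not covered at any base and held 3 CCAAT, 1 GGGCGG and 2 AP-1 matches. Zcchc7 (chr4:44756309-44756558, plus strand) was covered in full and held 1 GGGCGG, 1 TATA box and 1 GATA match, and Pax5 (chr4:44710695-44710944, minus strand) was not covered and held 2 GGGCGG.

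Motif counts over the same 250 bases are given for all listed members beside all coding promoters, as a description of letters. GGGCGG was found in 19 of the 46 listed members (41.3%, against 42.7% of all 17492 coding promoters) and CCAAT in 16 (34.8%, against 36.5% of all promoters). The Runx motif TGTGGT, whose family includes the member Runx1, was found in 7 (15.2%, against 12.4% of all promoters), and AGATAA in 2 (4.35%, against 9.1% of all promoters). The ETS core GGAA, which the products of Fli1, Erg and Spi1 bind, occurred in nearly every promoter, with 42 of 46 (91.3%, against 93.2%), and the E-box CANNTG, bound by Tal1 and Lyl1 complexes, in 23 (50%, against 62.7% of all promoters). TATAAA was present in 3 (6.52%, against 12.4% of all promoters) and TGACTCA in 2 (4.35%, against 3.98% of all promoters). Both strands were searched, and overlaps between motifs were counted.

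**Figure D1:**
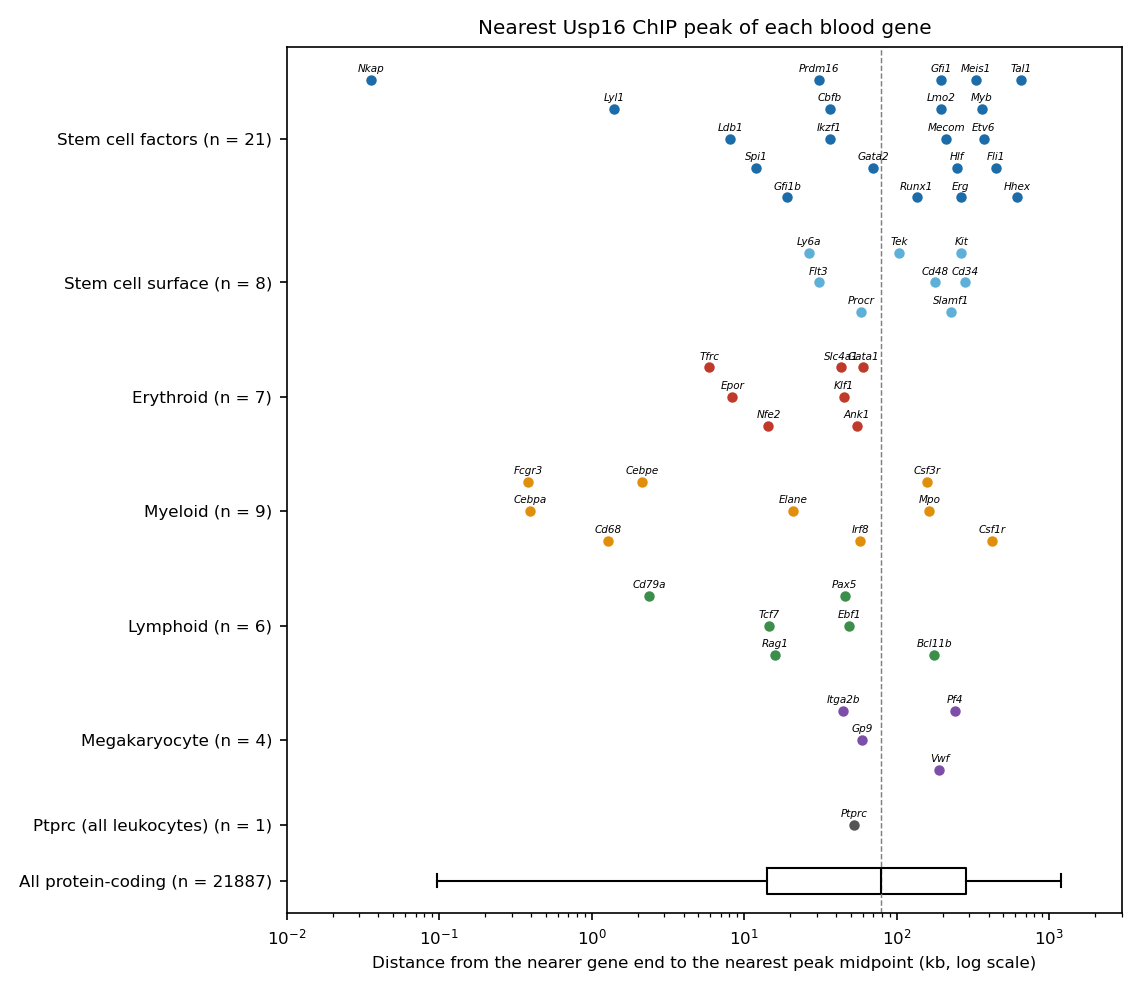
Distance in kb, on a log axis, from the nearer annotated end of each of the 56 genes to the nearest peak midpoint, by role, 1 point a gene, with all 21887 protein-coding genes below as a box (quartiles, whiskers at the 5th and 95th percentiles). The dashed line is the median of all protein-coding genes, 78.8 kb: all 7 erythroid genes and 5 of 6 lymphoid genes lie to its left, and 12 of 21 stem cell factor genes and 5 of 8 surface genes lie to its right.

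The genes of the stem cell network's factors had peaks at lower shares than protein-coding genes at each distance. Of the 21 genes, 1 had a peak within 1 kb of an end (4.76%, against 13.9% of protein-coding genes) and 3 within 10 kb (14.3%, against 22.4%). Within 50 kb it was 8 (38.1%, against 41.8%) and within 100 kb 9 (42.9%, against 54.6%). Their median distance to the nearest peak midpoint was 196 kb (range 0.036 to 651 kb), against 78.8 kb over all protein-coding genes. The 21 genes are too few for these shares to be set apart from those of all protein-coding genes. In a wider list of 19 further stem cell factor genes the share was 21.1% within 1 kb and within 10 kb. It was 26.3% within 50 kb and 47.4% within 100 kb, with a median distance of 106 kb. Runx1, Gata2, Tal1, Lmo2, Lyl1, Fli1 and Erg encode factors that often bind blood enhancers together, a grouping made after the values were seen. Of these 7, 2 had a peak within 100 kb (28.6%, against 54.6% of protein-coding genes). The nearest peak was 651 kb from Tal1, 450.1 kb from Fli1, 262 kb from Erg, 197 kb from Lmo2 and 135 kb from Runx1. None of the 7 had a peak inside the gene, against 16.7% of protein-coding genes, a share that 7 genes are too few to be set apart from. Gata2 had 1 peak in its surroundings, 70.0 kb upstream with a score of 75.3, which lay in no annotated gene.

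Lyl1, a basic helix-loop-helix factor related to Tal1, had the most peaks close by of any stem cell factor gene. One of score 67.6 lay 1.402 kb upstream, over an end of its neighbour Trmt1, a tRNA methyltransferase gene. Peaks of score 78.5 and 57.2 lay 4.701 and 7.881 kb downstream, both inside Nfix, and another of 52.3 lay 12.2 kb upstream inside Trmt1. No peak reached the 1 kb window at Lyl1 itself, whose nearest peak edge was 1.045 kb away. The scores of the 4 peaks ran between the 8.5th and the 60.9th percentile of the list.

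Nkap, a nuclear co-repressor of Notch target genes that blood stem cells need, carried the highest-scoring peak at an end of any of the 56 genes. Its peak of 557 bp on chromosome X (37126521 to 37127077) had a score of 113, at the 82.3rd percentile, with its midpoint 0.036 kb from the start. Ldb1, the adaptor that links distant GATA1 and Tal1 complexes to promoters, had a peak 8.127 kb upstream at the start of Pprc1, with a score of 50.3, among the weakest listed. Its other peaks within 50 kb were at starts of Nolc1 (score 66.0, 27.8 kb) and Armh3 (138, 33.0 kb). Spi1, which encodes the factor PU.1 of myeloid and B cells, had its nearest peak 11.9 kb away, with a score of 137, at the start of Slc39a13. Gfi1b, a repressor needed for red cell and platelet precursors, lay between peaks at the starts of Tsc1 (19.2 kb, score 81.8) and Gtf3c5 (26.4 kb, score 163).

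The remaining stem cell factor genes with a peak within 50 kb had a single one each. It lay 36.3 kb from Ikzf1, the Ikaros gene, at the start of Fignl1 (score 63.5), and 36.3 kb from Cbfb, the partner subunit of the Runx proteins, at ends of D230025D16Rik and B3gnt9 (score 55.0). Prdm16, a zinc finger factor of stem cell maintenance, held its peak inside the gene, 30.8 kb from the nearer end, with a score of 59.6. For Meis1, Hhex, Mecom, Myb, Gfi1, Etv6 and Hlf the nearest midpoint lay between 196 and 619 kb away, with no peak inside any of them, Mecom with its 558 kb included. Their distances lay at the 68.0th to 87.4th percentile of protein-coding genes.

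Genes of the surface proteins had no peak within 10 kb (0 of 8, against 22.4% of protein-coding genes), and 2 of 8 had one within 50 kb (25%, against 41.8%) and 3 within 100 kb (37.5%, against 54.6%). These 8 genes are too few for the shares to be set apart from those of all protein-coding genes. A wider list of 9 further surface genes had shares of 0% within 10 kb, 11.1% within 50 kb and 44.4% within 100 kb. Kit, the receptor used to select the cells, lay 265 kb from the nearest peak, and Cd34, the sialomucin of progenitors, 280.4 kb. Slamf1 and Cd48, neighbouring SLAM family genes used to tell stem cells from progenitors, lay 226 and 178 kb away, and Tek, the angiopoietin receptor gene, 104 kb. Ly6a, which encodes Sca-1 and was the other marker used to select the cells, had a peak of score 51.4 at 26.5 kb, at no gene end, and a second of 62.4 at 71.2 kb at an end of a pseudogene. Flt3, a cytokine receptor gene of progenitors primed for lymphoid fate, had a peak of 68.1 at 30.9 kb upstream, within 1 kb of a listed start of Pan3. The nearest peak of Procr, the endothelial protein C receptor gene, was 58.7 kb upstream at the start of Trpc4ap, with a score of 56.5. All 4 peaks around these genes scored below the list's median of 70.1.

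All 7 erythroid genes had a peak within 100 kb (100%, against 54.6% of protein-coding genes), 5 within 50 kb (71.4%, against 41.8%) and 2 within 10 kb (28.6%, against 22.4%). None had one within 1 kb of an end, against 13.9%, a share that 7 genes are too few to be set apart from. In a wider list of 23 further erythroid genes the share was 52.2% within 100 kb and 30.4% within 50 kb, with a median distance of 93.2 kb. For the 7 members the median distance was 43.3 kb (range 5.896 to 60.2 kb). Tfrc, the transferrin receptor gene through which red cell precursors take up iron, had a peak of score 55.3 at 5.896 kb downstream, and Epor, the erythropoietin receptor gene, one of 84.8 at 8.377 kb downstream. Neither of these 2 peaks lay at a gene end or in a gene. A stronger peak of 253, at the 97.6th percentile, lay 39.4 kb upstream of Epor where the starts of Ccdc151 and Prkcsh meet. Klf1, a red cell transcription factor gene, had 5 peaks between 45.1 and 85.0 kb away with scores from 55.1 to 107, each at an end of another coding gene, such as Farsa, Calr, Prdx2 and Hook2. Gata1 had 1 peak of 65.4 at 60.2 kb, at the starts of Pqbp1 and Timm17b. Nfe2, a factor gene shared by red cells and megakaryocytes, had peaks of 52.3 at 14.4 kb, at the start of Copz1, and of 50.4 at 46.8 kb.

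Ank1, which encodes the ankyrin that anchors the red cell membrane skeleton, held the highest-scoring peak found within 100 kb of, or inside, any of the 56 genes. It was narrow, with 568 bp on chromosome 8 (23095408 to 23095975), and had a score of 524, ranking 22nd of 5046. Its midpoint was 54.8 kb from the nearer end of Ank1 and at no annotated gene end, and 15 of the 2255 peaks at no gene end scored at least as high, this one included. Exons and introns are not in the gene table, so its place within the transcript is not given. A second peak of 69.5 lay 87.4 kb from Ank1, at an end of Gins4. The single narrow peak of high score has no replicate behind it, and mappability and repeats there were not tested.

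Myeloid genes were the group with most peaks at gene ends, 3 of 9 (33.3%), against 13.9% of protein-coding genes. Within 10 kb it was 4 (44.4%, against 22.4%), within 50 kb 5 (55.6%, against 41.8%) and within 100 kb 6 (66.7%, against 54.6%). In a wider list of 20 further myeloid genes the shares were 0% within 1 kb, 10% within 10 kb, 35% within 50 kb and 45% within 100 kb. Cebpa, the factor that opens the granulocyte programme, had a peak of 1305 bp with a score of 92.5 on chromosome 7 (35118247 to 35119551), which spans the start and reaches upstream. A second peak of 57.3 lay 50.1 kb downstream. The Cd68 peak of 2122 bp and score 55.9 lay past the gene's last base, 2.181 kb from the only listed start, and over the start of Mpdu1, a gene of glycosylation. Around Cd68, a gene of macrophage lysosomes, further peaks lay at starts of Eif4a1 (score 83.0, 5.618 kb), Senp3 (55.8, 15.6 kb) and Polr2a (201, 92.6 kb). Peaks of 53.5 at 84.4 kb, where the starts of Trp53 and Wrap53 lie, and of 69.1 at 100.4 kb, at the start of Zbtb4, were the others. The Fcgr3 peak was 3930 bp wide with a score of 54.9, touched 5 tRNA genes and ended 4.165 kb from the nearer of the 2 listed starts of this Fc receptor gene. It covers the gene's upper annotated end, which is on the upstream side of both starts. Of the 7 peaks within 100 kb of Fcgr3, 6 touched or lay within 1 kb of tRNA genes, the highest of them with a score of 149.

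Of the other 6 myeloid genes 3 had peaks within 100 kb and 3 had none, where 54.6% of protein-coding genes had one. Cebpe, a factor gene of late granulocytes, had a peak of 67.0 at 2.140 kb that lay at no gene end, and 4 more within 100 kb, up to a score of 293 at the start of Psmb5. Elane, the neutrophil elastase gene, had 4, of which the one of score 402 at 20.9 kb lay at the start of Med16. Irf8, a monocyte and dendritic cell factor gene, had 1 of 65.4 at 57.8 kb in no gene. No peak was listed within 100 kb of Mpo (163 kb), the myeloperoxidase gene, or of the receptor genes Csf3r (157 kb) and Csf1r (424 kb), nor inside them.

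Of the 6 lymphoid genes none had a peak within 1 kb of an end (against 13.9% of protein-coding genes), and 1 had one within 10 kb (16.7%, against 22.4%). Both are shares that 6 genes are too few to be set apart from. Within 50 kb 5 had one (83.3%, against 41.8%). In a wider list of 19 further lymphoid genes the share was 0% within 1 kb, 21.1% within 10 kb and 68.4% within 50 kb, with a median distance of 38.3 kb. Cd79a, a chain of the B cell receptor, lay between a peak of 182 at the start of the ribosomal protein gene Rps19 (13.1 kb) and one of 108 at a start of Arhgef1 (2.391 kb). Another of 57.8 lay 18.7 kb away inside Arhgef1. The peak nearest to Tcf7 was of 126 at 14.7 kb, at the start of Skp1, a ubiquitin ligase subunit gene. Rag1, the recombinase gene, had one of 67.7 at 16.0 kb at the start of the lncRNA gene Gm34041, and Pax5 one of 113 at 45.7 kb, at the start of Zcchc7. Ebf1 alone had its peak inside the gene, 48.8 kb from the nearer end, with a score of 104, at the 78.7th percentile. Bcl11b, the T cell commitment factor gene, had none within 100 kb and lay 176 kb from the nearest.

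None of the 4 megakaryocyte genes had a peak within 10 kb, against 22.4% of protein-coding genes, a share that 4 genes are too few to be set apart from. In a wider list of 13 further megakaryocyte genes the share was 7.69% within 10 kb, 15.4% within 50 kb and 38.5% within 100 kb. Itga2b, the platelet integrin alpha chain gene, shared with Slc4a1, the red cell anion exchanger gene, a peak of 69.4 at the start of Slc25a39, 44.7 kb from Itga2b and 43.3 kb from Slc4a1. Gp9, a gene of the von Willebrand factor receptor, had one of 69.2 at 59.1 kb, at the start of Isy1. Vwf and Pf4, which encode von Willebrand factor and platelet factor 4, had none within 100 kb, with nearest midpoints at 190 and 239 kb. Ptprc had a single peak of 59.3 at 52.7 kb upstream, in no annotated gene.

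**Figure D2:**
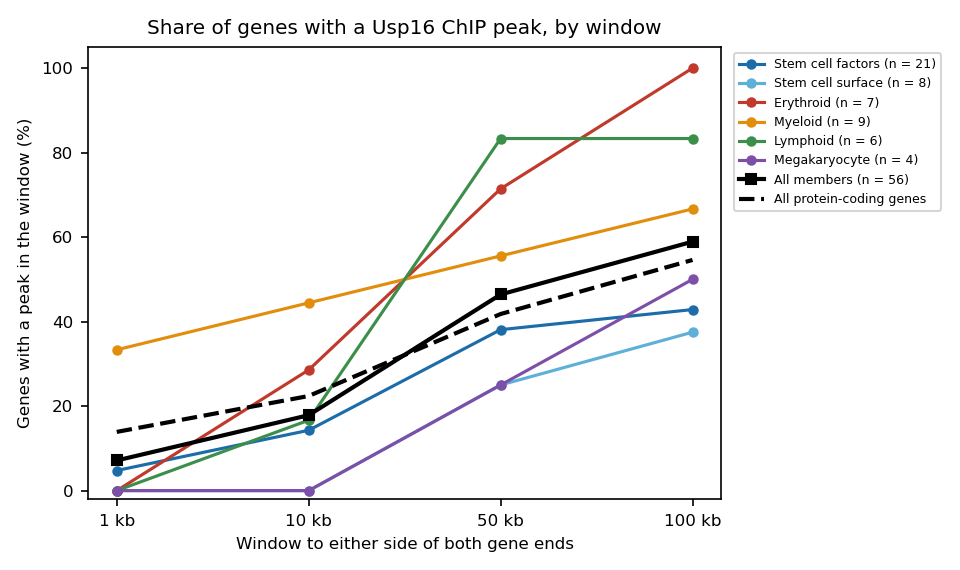
Percent of genes with a peak overlapping a window of 1, 10, 50 or 100 kb to either side of both annotated ends, for 6 groups by role, all 56 members (squares) and all 21887 protein-coding genes (dashed). At 1 kb the members stand at 7.14% against 13.9%, and at 100 kb at 58.9% against 54.6%.

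The share of members with a peak was below that of all protein-coding genes at 1 and 10 kb and above it at 50 and 100 kb, and 2 of these directions turned under another setting. Among the 56 genes 10 had a peak within 10 kb (17.9%), against 22.4% of protein-coding genes, 26 within 50 kb (46.4%), against 41.8%, and 33 within 100 kb (58.9%), against 54.6%. With the peaks at or above the median score it was 33.9% within 100 kb, against 36.7%, and with peaks away from other genes' ends 10.7% within 10 kb, against 10.5%. The median distance was 56.3 kb for the members and 78.8 kb for all protein-coding genes, and 33 of the 56 lay nearer to a peak than the median gene. Groups differed in order with the window: at 100 kb the shares were 100% for erythroid, 83.3% for lymphoid, 66.7% for myeloid, 50% for megakaryocyte, 42.9% for stem cell factor and 37.5% for surface genes, and each rests on 4 to 21 genes.

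Blood genes with more coding neighbours had a peak within 100 kb more often, as did protein-coding genes in general. The group shares fell in the order of their median neighbours, apart from the lymphoid genes and a swap of surface and stem cell factor genes. The median number of other protein-coding genes with an end within 100 kb was 10 for erythroid, 8 for myeloid, 5 for megakaryocyte, 3.5 for surface, 3 for stem cell factor and 2.5 for lymphoid genes, and 4 over all protein-coding genes. All 9 members with 10 or more such neighbours had a peak within 100 kb, against 81.1% of protein-coding genes with as many. Of the 12 members with at most 1 neighbour, among them Runx1, Kit and Ebf1, 4 had one, against 26.3%. With 2 to 4 neighbours it was 8 of 20 members, against 47.9%, and with 5 to 9 it was 12 of 15, against 63.0%. Lymphoid genes, with the fewest neighbours, had the second-highest group share, at 83.3%. The part of neighbouring genes in the group shares was not tested beyond this.

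Peaks near the blood genes lay largely at ends of other genes. The 33 genes with a peak within 100 kb had 71 distinct peaks between them. Of these, 39 (54.9%) lay at an end of another coding gene and not of the member, 8 at an end of a noncoding gene, 4 at an end of the member and 20 (28.2%) at no gene end, while 44.7% of all listed peaks lay at no gene end; 48.9% of all listed peaks lay at a coding gene end. The 71 were chosen for lying near genes, and all listed peaks were not. For 33 of the 39, a listed start of the other coding gene was within 1 kb, and for 5 more that gene has no start in the promoter table. Of the 20 at no gene end, 3 lay inside the member, in Prdm16, Ank1 and Ebf1, 7 inside another coding gene and 10 between coding genes. When only peaks away from every end of another gene were counted, 6 members (10.7%) had one within 10 kb, 13 (23.2%) within 50 kb and 18 (32.1%) within 100 kb. The shares of protein-coding genes were 10.5%, 19.7% and 28.1%.

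**Figure D3:**
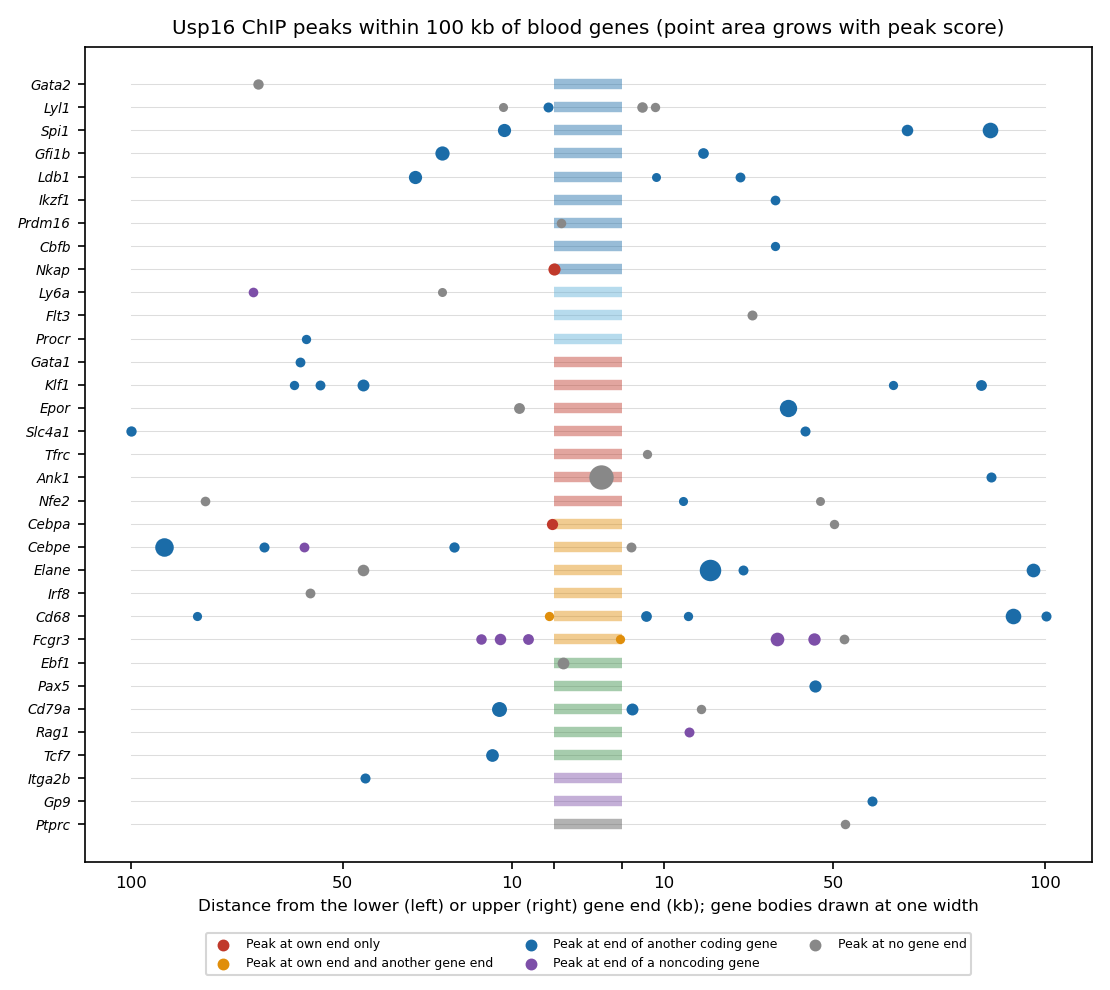
Every peak within 100 kb of, or inside, the 33 genes that have one, by distance in kb from the lower (left) or upper (right) gene end in genome order, with gene bodies drawn at one width and coloured by role. Point area grows with the peak score and colour gives whose gene end the peak lies at; the largest point inside a gene is the Ank1 peak of score 524, and most points are blue, at ends of other coding genes.

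A peak overlapped 6 of the 56 genes (10.7%), against 16.7% of protein-coding genes, and 3 of the 56 held one more than 1 kb from every annotated gene end (5.36%), against 4.15%. Among the 13 members longer than 100 kb these were Prdm16, Ank1 and Ebf1, so 3 of 13 (23.1%), against 18.2% of the 2429 protein-coding genes of that length. The other 10 long genes, such as Mecom, Runx1, Erg, Etv6 and Pax5, held none. Per summed gene length this was 0.764 peaks per Mb in the members, against 0.989 per Mb over all protein-coding genes.

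CpG content of the promoter moved with the presence of a peak in the genome at large. The CpG ratio is the number of CpG observed over that expected from the C and G content of 300 bases around the most upstream listed start. Of protein-coding genes with a ratio of 0.6 or more, 24.5% had a peak within 1 kb of a listed start, and of those below 0.6, 4.5%. The 46 listed blood genes had a median ratio of 0.605, against 0.577 over all protein-coding genes, and 23 of them were at 0.6 or more. Nkap (0.644) and Cebpa (0.853) were the 2 of these 23 with a start peak, and none of the 23 below 0.6 had one.

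Stem cell factor genes had mostly CpG-rich promoters, of which most had no peak at a listed start, as in CpG-rich genes in general. Their median ratio was 0.885 over 18 genes, and 14 of the 18 were at 0.6 or more, among them Ldb1 (1.195), Ikzf1 (1.06), Mecom (1.018), Cbfb (0.987), Myb (0.952), Erg (0.941) and Gata2 (0.900). Nkap was the only one of these 14 with a start peak, against the 24.5% of all CpG-rich genes, a share that 14 genes are too few to be set apart from. In the wider list of stem cell factor genes, 9 were at 0.6 or more and 2 of these had a start peak. Erythroid, myeloid and megakaryocyte genes had low medians of 0.217, 0.314 and 0.217, with Tfrc (0.940), Cebpa and Irf8 (1.034) as the members above 0.6, and lymphoid genes had 0.767. The gene's own activity in these cells was not measured in the files used here.

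**Figure D4:**
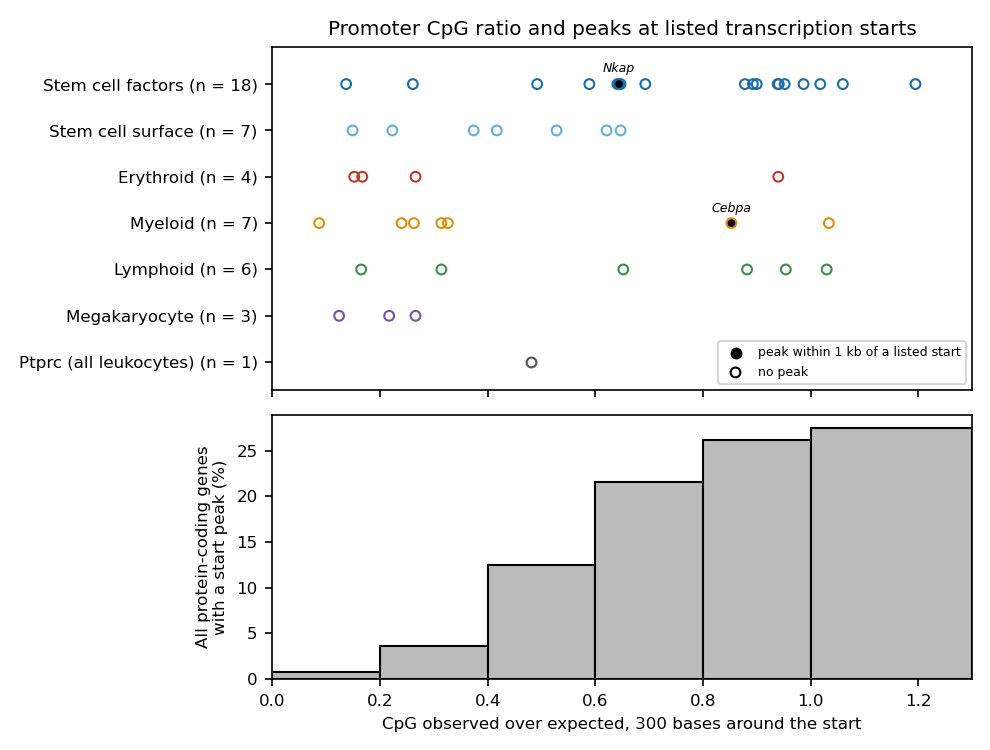
Upper panel: CpG ratio of the promoter of each of the 46 listed genes by role, 1 circle a gene, filled where a peak lies within 1 kb of a listed start. Lower panel: percent of all protein-coding genes in each bin of the ratio with such a peak, which is 0.751% in the lowest bin and 27.5% in the highest; Nkap and Cebpa are the filled circles.

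Wider lists of blood genes, drawn up by role, were counted in the same way. Of 103 further blood genes 8 had a peak within 1 kb of an end (7.77%), against 13.9% of protein-coding genes, and 54 had one within 100 kb (52.4%), against 54.6%. The 8 came from 2 lists. Among 19 further stem cell factor genes 4 had one (21.1%, above the 13.9% of protein-coding genes). These were Tcf3 (score 215), which encodes the E protein that pairs with Tal1, Foxo3 (91.9), a factor that keeps stem cells quiescent, Egr1 (88.4), an immediate early factor gene, and Hoxa9 (52.6). Of 23 further erythroid genes 4 had one (17.4%, also above 13.9%), among them Ppox (168), Uros (125) and Urod (51.1), which encode enzymes of haem synthesis. Among the members, the share was 4.76% for 21 stem cell factor genes and 0% for 7 erythroid genes, below 13.9%. All of these lists are too small for their shares to be set apart from 13.9%. The Ppox, Uros and Urod peaks were shared with an end of Usp21, Bccip and Hectd3. None of 9 surface, 20 myeloid, 19 lymphoid and 13 megakaryocyte genes had a peak within 1 kb.

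Genes of other tissues served as a further comparison. Of 25 transcription factor genes of other tissues, such as Sox2, Pax6, Hnf4a and Myog, none had a peak within 1 kb or within 10 kb, against 13.9% and 22.4% of protein-coding genes. Within 100 kb 5 of the 25 had one (20%), against 54.6%. Their median number of coding neighbours within 100 kb was 2. Of 12 genes of stroma and endothelium, 2 had a peak within 1 kb, Col1a1 (score 60.1) and Pdgfra (57.1), which is 16.7%, against 13.9% of protein-coding genes, and 8 had one within 100 kb (66.7%, against 54.6%). Both shares were above those of the blood members, 7.14% and 58.9%, but 12 genes are too few to be set apart from the members or from all protein-coding genes.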

How the data were processed

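Chromatin of ckit and sca1 positive mouse marrow cells was immunoprecipitated with anti-Usp16 or IgG, 1 library each. The deposited peaks were called with MACS in Galaxy, per the file headers, and each peak carries the caller's score, used here only to describe, rank and filter peaks. Bowtie, Picard and mm10 are named, without versions, per the submitters' processing notes; what MACS settings were used, and how the IgG library entered, is not given in the sources used here. Read depth is unknown and the IgG signal was not analysed here.

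Peak starts were made 1-based. Genes came from a RefSeq table (GRCm38.p6, which mm10 corresponds to), and starts, strands and sequences from a RefSeq promoter table of the same build (250 bases before to 50 after a start), which lacks some genes. A peak counted when it overlapped by 1 bp or more the gene, or a window of 1, 10, 50 or 100 kb to either side of an annotated end. Distances run from the peak's midpoint to the nearer end. Counts were made in Python 3.11.15 with pandas 2.3.3 and checked on simulated peaks. With 1 list and no replicates, shares stand beside those of all protein-coding genes and no test was run. Members, lists and windows were chosen with earlier results of these data known. All 56 members are accounted for; members with a peak within 10 kb or inside the gene are each described, with at least their nearest and highest-scoring peaks, and of the others at least the nearest and the farthest of each group. Wider lists of 140 genes (1 symbol unmatched) name up to 6 genes with a gene-end peak each. A gene that this rule selects is not reported here. Alternatives were windows of 500 bp, 2 kb and 5 kb, peaks at or above the median score, midpoint or at least 50% overlap, listed starts, and leaving out peaks at small RNA genes or at other genes' ends. The division at a CpG ratio of 0.6 was chosen after seeing the data.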

Additional observations from a re-analysis of the deposited data

How the results depend on the processing

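Of 28 alternative values, 15 stayed within 1.5 times the reported one. The 4 members with a gene-end peak became 7 with a window of 5 kb (against 18.3% of protein-coding genes), 2 with the higher-scoring part of the list (score at or above the median, against 7.99%) and 2 with listed transcription starts only (against 14.2%). With the other settings the count lay between 3 and 6. With the higher-scoring peaks, 16 members had one within 50 kb (28.6%, against 26.4% of protein-coding genes) and 19 within 100 kb (33.9%, against 36.7%), so that at 100 kb the members turned from above to below the share of all genes. By group, 0 of 8 surface, 4 of 7 erythroid and 0 of 4 megakaryocyte genes and not Ptprc (0 of 1) then had one within 100 kb, against 36.7% of protein-coding genes. For the other groups it was 6 of 21 stem cell factor, 5 of 9 myeloid and 4 of 6 lymphoid genes. With peaks over 1 kb from every end of another gene, the counts were 6 within 10 kb (10.7%, against 10.5%, which turned from below to above), 13 within 50 kb (23.2%, against 19.7%) and 18 within 100 kb (32.1%, against 28.1%). Members with a peak inside numbered 3 with peaks near gene ends left out (5.36%, against 4.15%, where 10.7% stood against 16.7%). The lowest listed score of 50 limits what an absent peak can show, and 1 library gives no error for any count. No paired analysis was possible because each antibody has 1 library and no test was run.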
